A study of Homo sapiens with 6 samples.

Results

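The DNA replication licensing and fork genes are 46 genes whose products mark replication origins, load and start the replicative helicase, copy the DNA, supply thymidylate and restore chromatin behind the fork. They were picked out by gene symbol, and each of the 46 was found as 1 of the 42495 gene rows of the deposited expression table. The 46 genes and the lists of related genes below were chosen with earlier results of these data known. The shares called in them are therefore descriptions and no independent support. The cells were Panc-1, a long-established line of human pancreatic ductal carcinoma, kept for 72 h in CAFR1-CM or in CAFS1-CM, each being the medium conditioned by a single line of cancer-associated fibroblasts (CAFs). The CAFR lines of the study came from platinum-resistant pancreatic cancers and the CAFS lines from platinum-sensitive ones. Each group had 3 samples, whose RNA was depleted of ribosomal RNA and sequenced, and no untreated Panc-1 sample was analysed here. With a single CAF line behind each group, a p-value here reflects only how these 6 samples vary, which may be technical, and says nothing of other CAF lines.

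In G1 phase, the origin recognition complex (ORC), CDC6 and CDT1 load the MCM2-7 helicase onto DNA, a step called licensing, and geminin blocks CDT1 after S phase has begun. The kinase CDC7-DBF4, CDC45, the GINS complex and MCM10 then turn the loaded helicase on, and DNA polymerases, the clamp PCNA and its loader RFC extend both strands. Transcription of many of these genes is driven by E2F factors at the G1/S transition, so their RNA is commonly high in dividing cells and low in resting ones.

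Most of these genes were lower after CAFR1-CM than after CAFS1-CM, by a moderate amount. Here and below, fell and rose mean lower and higher after CAFR1-CM than after CAFS1-CM. Without untreated cells, which of the media moved a gene cannot be told. MCM3, a subunit of the helicase, averaged 47.4 ± 1.63 FPKM after CAFR1-CM and 79.0 ± 0.537 FPKM after CAFS1-CM (SD, n = 3 each), a ratio of means of 0.600. PCNA, the sliding clamp that holds polymerases on DNA, averaged 101 ± 3.89 FPKM after CAFR1-CM and 158 ± 1.25 FPKM after CAFS1-CM (SD, n = 3 each), a ratio of 0.640. CDT1, the licensing factor, had the lowest log2 fold change of the 46 (ratio 0.585), and POLA1, the catalytic subunit of DNA polymerase alpha, was the exception that rose (ratio 1.22). Levels are FPKM, fragments scaled for transcript length and for the size of the library, and log2 fold changes are differences of log2(FPKM + 1), CAFR1-CM minus CAFS1-CM, from limma fitted over 23608 genes. At a Benjamini-Hochberg adjusted p under 0.05, 35 of the 46 genes (76.1%) were lower, 1 was higher and 10 were not called. Over all genes tested, 11.1% were lower and 15.1% higher. Among genes with a mean of at least 1 FPKM, tested alone, 19.1% were lower, beside 38 of these 46. Of all calls 57.5% were higher, and 42.0% were with median-of-ratios scaling, under which 40 of the 46 genes were lower. The median log2 fold change was -0.45 for the 46 genes and 0.06 for all genes tested.

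The sizes of the falls differed between genes. Log2 fold changes of the 35 genes lower ran from -0.76 (CDT1) to -0.20 (DUT), and role medians from -0.67 for helicase loading to -0.12 for origin recognition. Ratios of means ran from 0.570 to 0.869 among the 35 genes lower, 19 of the 46 had a ratio under 0.7, and 0 reached an absolute log2 fold change of 1. Every CAFR1-CM value lay below every CAFS1-CM value for 41 genes, against 16.8% of all genes tested. The 46 genes held 0.176%, 0.192% and 0.182% of the FPKM total after CAFR1-CM, against 0.251%, 0.258% and 0.262% after CAFS1-CM. Group means ranged from 5.03 FPKM (POLE2 after CAFR1-CM) to 183 FPKM (TYMS after CAFS1-CM), well above the filter of 0.1 FPKM. The median coefficient of variation among the 3 libraries was 4.60% after CAFR1-CM and 3.69% after CAFS1-CM. In bulk RNA, fewer cells in S phase and less of these RNAs per cell cannot be told apart.

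**Figure D1:**
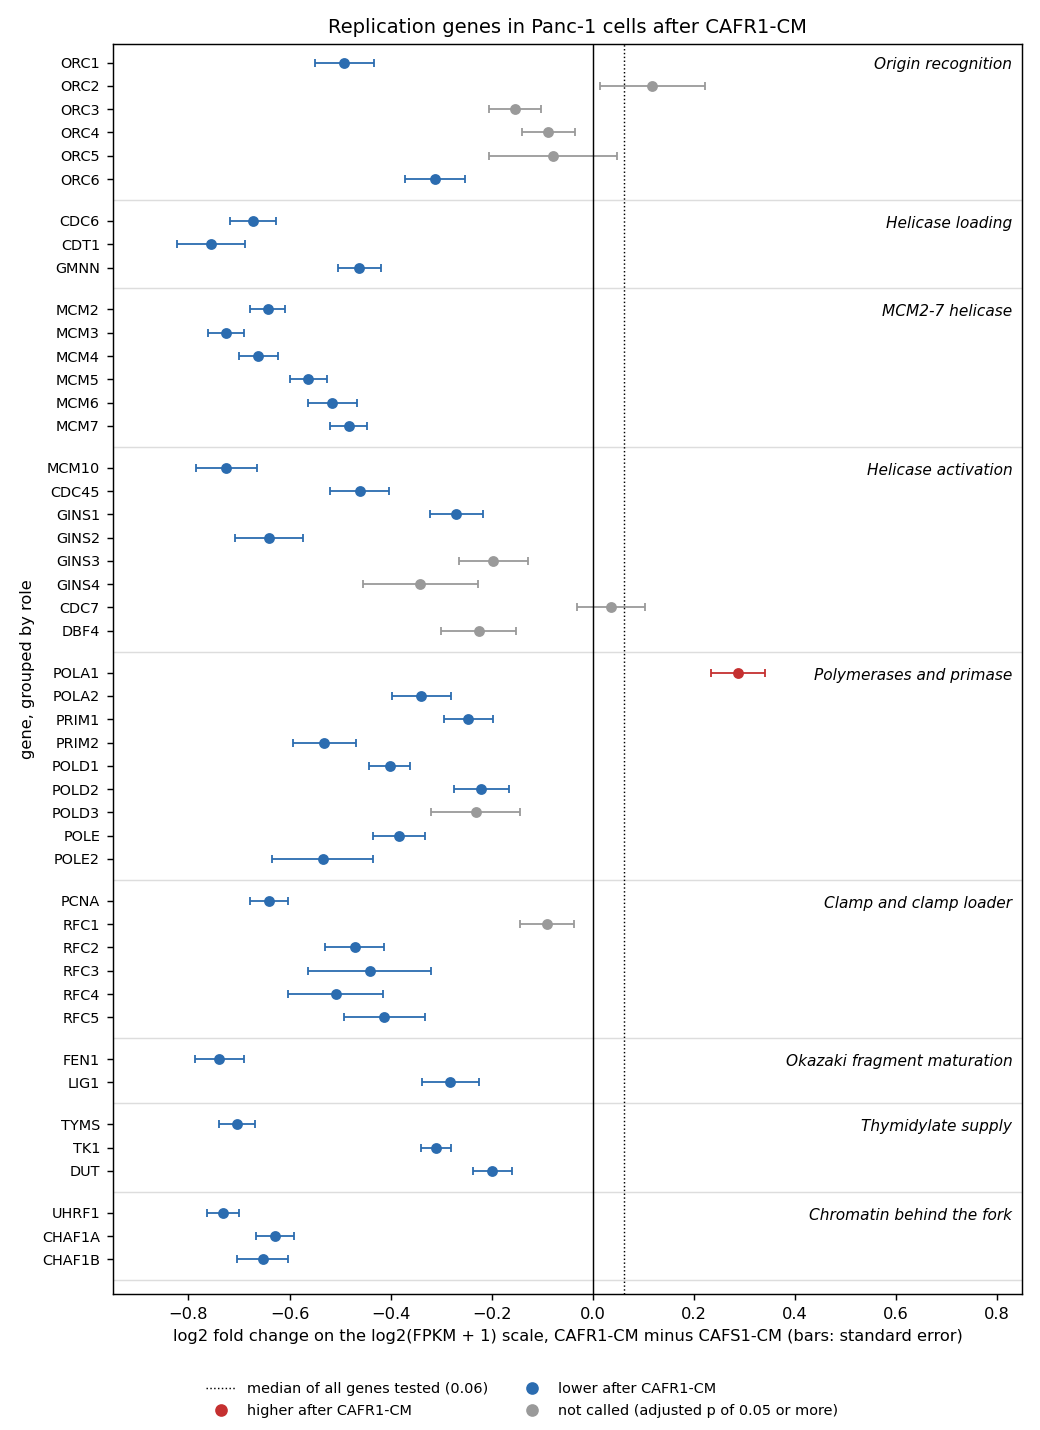
Log2 fold change of each of the 46 replication genes (horizontal axis, log2(FPKM + 1) scale, CAFR1-CM minus CAFS1-CM, bars of 1 standard error), with genes grouped by role down the page. The 35 genes lower lie left of 0, POLA1 lies right of it at 0.29, and the dotted line marks the median of all genes tested, 0.06.

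**Figure D2:**
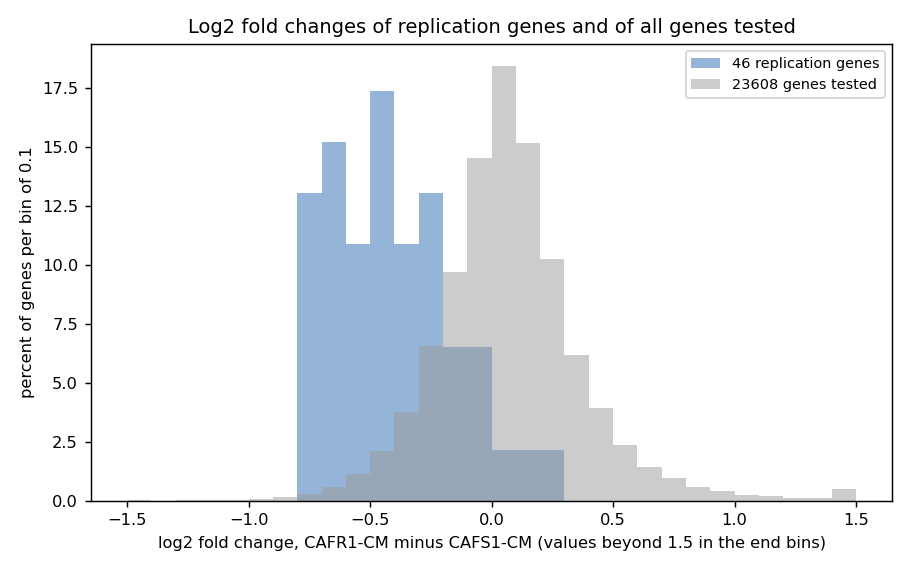
Percent of genes (vertical axis) in each bin of 0.1 of the log2 fold change (horizontal axis), for the 46 replication genes and for the 23608 genes tested. The replication genes centre on a median of -0.45 and all genes on 0.06.

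As for the libraries, FPKM summed to 666560 to 701406 after CAFR1-CM and to 660604 to 691568 after CAFS1-CM. FPKM are not counts, so the depth is unknown. Of 1577 genes above 0 in 1 library of each group, 369 lay near an FPKM ratio of 2.00 and 276 near 1.00, which does not settle the relative depth. The epithelial keratin gene KRT8 was at 3057 to 3116 FPKM after CAFR1-CM and at 3413 to 3744 FPKM after CAFS1-CM, and EPCAM was at 2.58 to 3.11 FPKM after CAFR1-CM and 0.72 to 1.85 FPKM after CAFS1-CM. Of the 6 ductal epithelial markers, EPCAM and CDH1 were higher (log2 fold change 0.76 and 0.73, adjusted p = 0.0260 and 0.00139, limma), KRT18 and KRT19 were lower (-0.31 and -0.17, adjusted p = 0.0114 and 0.0204, limma), and KRT7 and KRT8 were not called. The 12 fibroblast markers summed to 54.2 to 60.2 FPKM after CAFR1-CM and to 42.0 to 48.3 FPKM after CAFS1-CM, nearly all from COL1A1 and COL3A1. COL1A1 was higher (log2 fold change 0.49, adjusted p = 7.32e-04, limma), while FAP and PDPN were listed at 0 in all 6 libraries and COL1A2 and DCN at 0.03 FPKM at most. The 6 leukocyte markers summed to 36.2 to 42.0 FPKM after CAFR1-CM and to 33.6 to 36.6 FPKM after CAFS1-CM. Nearly all of this came from CD68, with PTPRC at 0.01 FPKM at most. The 5 endothelial markers summed to 2.09 to 2.55 FPKM after CAFR1-CM and to 1.55 to 1.63 FPKM after CAFS1-CM. Of these 5 only 2 passed the filter and were tested, with KDR the 1 marker higher. Of the fibroblast markers 5 of 12 were tested, and of the leukocyte markers 3 of 6. The part of other cells in the results was not tested.

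The promoters of these genes are shown because the genes moved together and E2F sites are a known feature of several of them. RefSeq start-site windows (GRCh38.p14, 250 bases before to 50 bases after each start) matched 42 of the 46 genes, all but MCM4, MCM5, GINS4 and POLD3. The E2F core, searched on both strands as TTCCCGC, or as TTGGCGC, or as TTCGCGC, or as TTGCCGC, with overlapping matches counted separately, was found in a window of 31 of the 42 genes (73.8%), against 15.3% of the 27305 genes of the promoter table. Among tested genes outside the 46 with a mean of at least 1 FPKM, a core was found for 30.4% of those lower, 21.5% of those higher and 24.1% of those not called. Within the 46, it was found for 26 of the 33 genes lower with a window (78.8%), for 4 of 8 not called (ORC3, GINS3, CDC7 and RFC1) and for POLA1, which rose. The CHR motif (TTTGAA, or as TTCGAA) was in 3 of the 42 genes (7.14%), against 19.5% of all genes, and the CCAAT box (CCAAT) in 23 (54.8%), against 39.7%. Among the tested genes outside the 46 just named, the CHR motif was in 12.9% to 16.8% and the CCAAT box in 39.3% to 48.5%, depending on the call. A match is a stretch of letters and not a bound site. Other forms of E2F sites were not searched, so a window with none of the 4 may still hold such a site. The MCM10 window, for example, holds TTGGCGG, which differs from TTGGCGC in its last letter and was not counted. Shown are the windows of CDT1 and MCM3, which fell and hold 2 and 3 cores, of MCM10, which fell with none of the 4 forms, of POLA1, which rose with 3, and of ORC2, which was not called and holds none. Capitals mark E2F cores, and each line runs 5′ to 3′ on the gene's strand.
CDT1: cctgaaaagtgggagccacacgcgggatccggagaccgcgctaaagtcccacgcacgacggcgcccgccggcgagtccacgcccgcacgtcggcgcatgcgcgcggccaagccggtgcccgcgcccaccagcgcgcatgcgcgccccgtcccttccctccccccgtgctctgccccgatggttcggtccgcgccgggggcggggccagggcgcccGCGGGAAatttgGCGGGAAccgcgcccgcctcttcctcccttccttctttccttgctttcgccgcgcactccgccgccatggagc
MCM3: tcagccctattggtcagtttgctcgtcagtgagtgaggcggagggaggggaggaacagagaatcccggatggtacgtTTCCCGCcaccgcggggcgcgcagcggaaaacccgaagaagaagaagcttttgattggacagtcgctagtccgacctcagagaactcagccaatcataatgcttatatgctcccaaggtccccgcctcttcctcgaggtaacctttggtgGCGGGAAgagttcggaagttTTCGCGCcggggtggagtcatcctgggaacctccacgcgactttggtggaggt
MCM10: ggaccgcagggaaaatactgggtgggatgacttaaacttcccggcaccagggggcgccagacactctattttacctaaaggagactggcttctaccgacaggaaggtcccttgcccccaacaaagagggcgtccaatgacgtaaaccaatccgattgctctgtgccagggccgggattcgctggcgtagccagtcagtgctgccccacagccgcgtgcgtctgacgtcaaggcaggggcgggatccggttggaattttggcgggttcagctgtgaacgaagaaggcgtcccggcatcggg
POLA1: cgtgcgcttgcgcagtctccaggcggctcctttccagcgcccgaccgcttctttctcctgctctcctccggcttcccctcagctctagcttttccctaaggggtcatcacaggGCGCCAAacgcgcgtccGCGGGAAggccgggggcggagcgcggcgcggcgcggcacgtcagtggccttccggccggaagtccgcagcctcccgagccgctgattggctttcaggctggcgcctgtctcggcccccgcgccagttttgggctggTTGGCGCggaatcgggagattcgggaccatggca
ORC2: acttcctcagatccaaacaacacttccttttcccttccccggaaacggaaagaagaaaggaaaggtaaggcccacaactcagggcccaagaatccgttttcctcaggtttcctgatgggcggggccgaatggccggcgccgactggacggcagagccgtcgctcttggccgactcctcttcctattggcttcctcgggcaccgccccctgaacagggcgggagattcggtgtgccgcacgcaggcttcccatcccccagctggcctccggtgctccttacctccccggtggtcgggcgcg
The windows lie at chr16:88803539-88803838, plus strand (CDT1), chr6:52284693-52284992, minus strand (MCM3), chr10:13161308-13161607, plus strand (MCM10), chrX:24693668-24693967, plus strand (POLA1) and chr2:200963611-200963910, minus strand (ORC2). The cores of CDT1 start 35 and 23 bases before the start site.

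Of the roles, origin recognition had the median log2 fold change nearest to 0, at -0.12. Of the 6 ORC genes, ORC1 and ORC6 were lower and ORC2, ORC3, ORC4 and ORC5 were not called. ORC1 encodes the subunit whose level swings most with the cell cycle in human cells, and it was at 5.70, 6.14 and 5.85 FPKM after CAFR1-CM, against 8.77, 8.88 and 8.43 FPKM after CAFS1-CM (log2 fold change -0.49, standard error 0.06, adjusted p = 0.00143, limma). The groups of ORC1 did not overlap. ORC6, the smallest subunit, fell by 0.31 on the log2 scale (adjusted p = 0.00943, limma). ORC2, a core subunit, was at 10.5, 14.3 and 13.1 FPKM after CAFR1-CM, against 11.3, 11.6 and 11.6 FPKM after CAFS1-CM (log2 fold change 0.12, standard error 0.10, adjusted p = 0.455, limma). Its CAFR1-CM replicate 1 lay below every CAFS1-CM value and the other two CAFR1-CM libraries above them. Without that library ORC2 was called higher (log2 fold change 0.24, adjusted p = 0.0303, limma). ORC5, an ATP-binding core subunit, was at 5.56, 7.65 and 8.13 FPKM after CAFR1-CM, against 7.27, 7.37 and 7.81 FPKM after CAFS1-CM (log2 fold change -0.08, standard error 0.13, adjusted p = 0.693, limma). Here the same library was the lowest of all 6, and the log2 fold change was 0.07 without it, not called. ORC4 overlapped between groups, and ORC3 did not (log2 fold change -0.15, adjusted p = 0.0683, limma). The ratio of ORC1 to ORC2 was 0.546, 0.430 and 0.446 after CAFR1-CM, against 0.778, 0.769 and 0.730 after CAFS1-CM.

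All 3 helicase-loading genes fell. CDC6, the ATPase that recruits CDT1 and the helicase to ORC, was at 14.7, 15.6 and 15.1 FPKM after CAFR1-CM, against 23.8, 24.8 and 25.6 FPKM after CAFS1-CM (log2 fold change -0.67, standard error 0.05, adjusted p = 1.47e-04, limma). CDT1 was at 34.0, 29.3 and 31.0 FPKM after CAFR1-CM, against 57.5, 51.2 and 52.5 FPKM after CAFS1-CM (log2 fold change -0.76, standard error 0.07, adjusted p = 4.57e-04, limma). For both genes a wide gap separated the groups. GMNN, the gene of geminin, which binds and blocks CDT1, was at 25.4, 24.4 and 25.5 FPKM after CAFR1-CM, against 34.0, 36.5 and 34.5 FPKM after CAFS1-CM (log2 fold change -0.46, standard error 0.04, adjusted p = 5.12e-04, limma). So the loading factors and the inhibitor of CDT1 were lower together. The ratio of CDT1 to GMNN, both as FPKM, was 1.34, 1.201 and 1.22 after CAFR1-CM, against 1.69, 1.40 and 1.52 after CAFS1-CM. These ranges do not overlap, the nearest values being CAFR1-CM replicate 1 and CAFS1-CM replicate 2. The ratio was not tested.

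The 6 subunits of the MCM2-7 helicase, the ring that unwinds DNA at the fork, all fell, with a median log2 fold change of -0.60. MCM2 was at 31.9, 30.9 and 30.3 FPKM after CAFR1-CM, against 49.2, 48.8 and 49.0 FPKM after CAFS1-CM (log2 fold change -0.64, standard error 0.03, adjusted p = 6.67e-05, limma). MCM3 was at 46.4, 49.3 and 46.4 FPKM after CAFR1-CM, against 78.6, 78.8 and 79.6 FPKM after CAFS1-CM (log2 fold change -0.73, standard error 0.04, adjusted p = 4.61e-05, limma). MCM4 was at 32.9, 35.5 and 33.9 FPKM after CAFR1-CM, against 54.8, 54.0 and 54.8 FPKM after CAFS1-CM (log2 fold change -0.66, standard error 0.04, adjusted p = 9.15e-05, limma). In each of these the CAFS1-CM libraries lay within a few percent of each other and far above the CAFR1-CM libraries. MCM5 was at 38.1, 36.8 and 39.4 FPKM after CAFR1-CM, against 57.2, 56.2 and 56.8 FPKM after CAFS1-CM (log2 fold change -0.56, standard error 0.04, adjusted p = 1.37e-04, limma). MCM6 was at 18.9, 19.2 and 20.7 FPKM after CAFR1-CM, against 27.8, 28.1 and 29.5 FPKM after CAFS1-CM (log2 fold change -0.52, standard error 0.05, adjusted p = 5.82e-04, limma). MCM7 was at 70.0, 70.0 and 72.3 FPKM after CAFR1-CM, against 103, 96.2 and 99.0 FPKM after CAFS1-CM (log2 fold change -0.48, standard error 0.04, adjusted p = 2.50e-04, limma). No subunit overlapped between the groups. The order of the 6 levels, compared per length as FPKM, was MCM7, MCM3, MCM5, MCM4, MCM2 and MCM6 from high to low in all 6 libraries. In each library MCM7 was 3.36 to 3.70 times MCM6. Summed over the 6 genes, the level was 238 to 243 FPKM after CAFR1-CM, against 362 to 370 FPKM after CAFS1-CM.

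**Figure D3:**
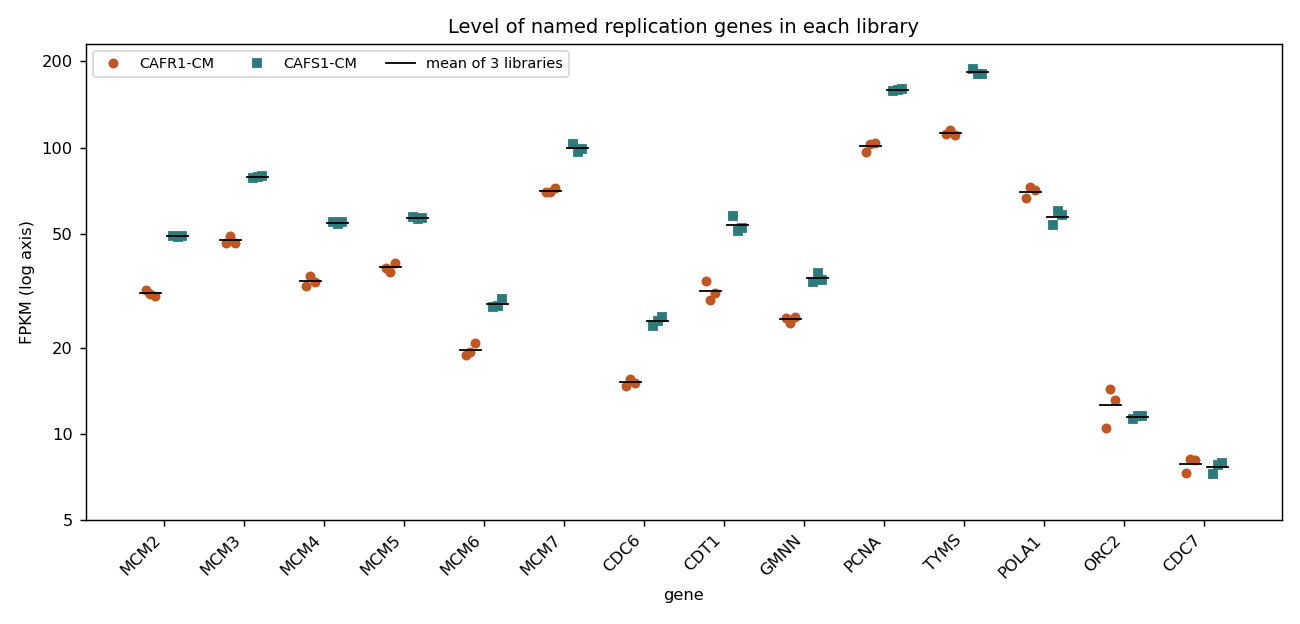
FPKM (vertical log axis) of 14 replication genes in each library, with CAFR1-CM as circles left of CAFS1-CM as squares and lines at the mean of 3 libraries. The 6 MCM genes, CDC6, CDT1, GMNN, PCNA and TYMS are lower after CAFR1-CM without overlap, POLA1 is higher, and ORC2 and CDC7 overlap.

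Helicase activation was mixed. Of 8 genes, MCM10, CDC45, GINS1 and GINS2 were lower and GINS3, GINS4, CDC7 and DBF4 were not called. MCM10, which binds the active helicase and brings in polymerase alpha, was at 6.28, 6.27 and 6.86 FPKM after CAFR1-CM, against 10.8, 11.5 and 11.7 FPKM after CAFS1-CM (log2 fold change -0.72, standard error 0.06, adjusted p = 3.78e-04, limma). Its ratio of means, 0.570, was the lowest of the 46. CDC45, part of the active helicase, averaged 9.58 ± 0.364 FPKM after CAFR1-CM and 13.6 ± 0.758 FPKM after CAFS1-CM (SD, n = 3 each) (adjusted p = 0.00185, limma). The 4 GINS genes encode 1 complex but their log2 fold changes were -0.27 for GINS1, -0.64 for GINS2, -0.20 for GINS3 and -0.34 for GINS4, with standard errors of 0.05, 0.07, 0.07 and 0.11. GINS4 was at 5.36, 6.89 and 7.51 FPKM after CAFR1-CM, against 8.35, 8.21 and 9.08 FPKM after CAFS1-CM, and was not called (adjusted p = 0.0681, limma), though the groups did not overlap. GINS4 turned on the libraries and the setting. Without CAFR1-CM replicate 1, its lowest library, the log2 fold change was -0.22 and not called, and without CAFR1-CM replicate 3 it was -0.43 and called lower (adjusted p = 0.0385, limma). It was also called lower with a mean of at least 1 FPKM, with cyclic loess and with median-of-ratios scaling (adjusted p = 0.0445, 0.0355 and 0.0254, limma). CDC7, the kinase that fires origins, was at 7.30, 8.17 and 8.10 FPKM after CAFR1-CM, against 7.22, 7.77 and 7.91 FPKM after CAFS1-CM (log2 fold change 0.04, standard error 0.07, adjusted p = 0.735, limma), with overlapping groups and a log2 fold change of -0.04 under median-of-ratios scaling. DBF4, its activating subunit, averaged 7.13 ± 0.420 FPKM after CAFR1-CM and 8.51 ± 0.660 FPKM after CAFS1-CM (SD, n = 3 each) (adjusted p = 0.0669, limma). Like GINS4, DBF4 and GINS3 were called lower with a mean of at least 1 FPKM, with cyclic loess and with median-of-ratios scaling. The adjusted p was 0.0442, 0.0313 and 0.0187 for DBF4 and 0.0493, 0.0313 and 0.0277 for GINS3 (limma). In 7 of the 8 genes every CAFR1-CM value lay below every CAFS1-CM value, against 16.8% of all genes tested.

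Among the 9 polymerase and primase genes, 7 were lower, 1 was higher and POLD3 was not called. POLA1 was at 66.6, 72.6 and 71.2 FPKM after CAFR1-CM, against 53.8, 60.1 and 58.1 FPKM after CAFS1-CM (log2 fold change 0.29, standard error 0.05, adjusted p = 0.00895, limma). Every CAFR1-CM library was above every CAFS1-CM library, the reverse of the other genes called. The other genes of the same complex, which lays down the RNA-DNA primers, fell. POLA2, its accessory subunit, had a log2 fold change of -0.34 (adjusted p = 0.00650, limma), and the primase genes PRIM1 and PRIM2 had -0.25 and -0.53 (adjusted p = 0.0106 and 0.00135, limma). The ratio of POLA1 to POLA2 was 2.70, 2.63 and 2.64 after CAFR1-CM, against 1.60, 1.69 and 1.81 after CAFS1-CM. In GENCODE v44 (GRCh38) POLA1 lies on the plus strand of chromosome X, from 24693873 to 24996986, and 0 other genes overlap its exons. POLA1 was called higher in all 16 alternatives run.

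Of the leading and lagging strand polymerases, POLE2, a subunit of polymerase epsilon, was at 4.86, 5.87 and 4.36 FPKM after CAFR1-CM, against 7.51, 8.06 and 7.50 FPKM after CAFS1-CM (log2 fold change -0.53, standard error 0.10, adjusted p = 0.00903, limma). It had the largest fall of the polymerase and primase genes, narrowly ahead of PRIM2. The catalytic subunits POLE and POLD1 averaged ratios of 0.758 and 0.747 (adjusted p = 0.00235 and 7.66e-04, limma). POLD2, the second subunit of polymerase delta, was at 93.0, 95.3 and 83.8 FPKM after CAFR1-CM, against 109, 106 and 102 FPKM after CAFS1-CM (log2 fold change -0.22, standard error 0.05, adjusted p = 0.0258, limma), the smallest change among these 9 genes. Its call was lost without any 1 of the 3 CAFS1-CM libraries (adjusted p = 0.0841, 0.0759 and 0.0512 without replicates 1, 2 and 3, limma). It was also lost with cyclic loess scaling, with no filter on low values and with no mean-variance trend (adjusted p = 0.151, 0.0897 and 0.0572, limma). POLD3, an accessory subunit of polymerase delta, had a log2 fold change of -0.23 and an adjusted p of 0.1 (limma).

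PCNA and 4 of the 5 genes of its loader RFC fell. PCNA was at 96.8, 103 and 104 FPKM after CAFR1-CM, against 157, 158 and 159.5 FPKM after CAFS1-CM (log2 fold change -0.64, standard error 0.04, adjusted p = 9.45e-05, limma). RFC1, the large subunit of the loader, was at 9.14, 9.11 and 8.97 FPKM after CAFR1-CM, against 9.22, 9.91 and 10.1 FPKM after CAFS1-CM (log2 fold change -0.09, standard error 0.05, adjusted p = 0.270, limma), so the highest CAFR1-CM value lay just under the lowest CAFS1-CM value. The smaller subunits RFC2, RFC4 and RFC5 had log2 fold changes of -0.47, -0.51 and -0.41 (adjusted p = 0.00170, 0.00842 and 0.0103, limma). RFC3 was at 11.3, 12.5 and 10.3 FPKM after CAFR1-CM, against 15.2, 13.6 and 18.8 FPKM after CAFS1-CM (log2 fold change -0.44, standard error 0.12, adjusted p = 0.0373, limma). Its libraries spread widely in both groups, and it was not called without CAFR1-CM replicate 1 or 3 or CAFS1-CM replicate 1 or 3, where the adjusted p was 0.074 to 0.0954 (limma). The call of RFC3 was also lost with no filter on low values, with the replicate block, with no mean-variance trend and with weights per library (adjusted p = 0.142, 0.0886, 0.0511 and 0.0519, limma).

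FEN1 and LIG1 finish Okazaki fragments, the short pieces in which the lagging strand is made. FEN1, the flap nuclease, was at 34.2, 37.7 and 34.4 FPKM after CAFR1-CM, against 57.7, 61.3 and 60.3 FPKM after CAFS1-CM (log2 fold change -0.74, standard error 0.05, adjusted p = 1.41e-04, limma). LIG1, the ligase that seals the nicks, was at 22.1, 23.2 and 20.1 FPKM after CAFR1-CM, against 26.9, 26.8 and 26.3 FPKM after CAFS1-CM (log2 fold change -0.28, standard error 0.06, adjusted p = 0.0120, limma). Both fell without overlap, FEN1 to a ratio of 0.593 and LIG1 to 0.817.

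All 3 genes of thymidylate supply fell, by unequal amounts. TYMS, thymidylate synthase and the target of fluoropyrimidines, was at 111, 115 and 110.4 FPKM after CAFR1-CM, against 189, 181 and 181 FPKM after CAFS1-CM (log2 fold change -0.70, standard error 0.04, adjusted p = 4.84e-05, limma). TK1, the salvage thymidine kinase, averaged 79.5 ± 0.637 FPKM after CAFR1-CM and 98.8 ± 1.37 FPKM after CAFS1-CM (SD, n = 3 each) (adjusted p = 6.10e-04, limma). DUT, which degrades dUTP, was at 54.8, 54.1 and 55.8 FPKM after CAFR1-CM, against 64.4, 60.3 and 64.8 FPKM after CAFS1-CM (log2 fold change -0.20, standard error 0.04, adjusted p = 0.0111, limma). No gene of the 3 overlapped between groups, and the call of DUT was lost with cyclic loess scaling (adjusted p = 0.101, limma). Of the exonic bases of TYMS, 39.9% lie over exons of ENOSF1 on the opposite strand, and the sources used here do not say whether reads were counted by strand. ENOSF1 itself was at 27.1, 25.2 and 25.6 FPKM after CAFR1-CM, against 16.5, 17.5 and 17.3 FPKM after CAFS1-CM, the reverse of TYMS.

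The 3 genes of chromatin behind the fork fell by nearly the same amount. UHRF1, which guides the maintenance DNA methyltransferase to new DNA, was at 29.1, 28.2 and 28.5 FPKM after CAFR1-CM, against 47.9, 48.6 and 48.0 FPKM after CAFS1-CM (log2 fold change -0.73, standard error 0.03, adjusted p = 3.10e-05, limma), the smallest adjusted p of the 46. CHAF1A, the large subunit of the histone chaperone CAF-1, was at 16.3, 15.8 and 15.8 FPKM after CAFR1-CM, against 24.9, 25.3 and 25.3 FPKM after CAFS1-CM (log2 fold change -0.63, standard error 0.04, adjusted p = 9.99e-05, limma). CHAF1B, its second subunit, averaged 11.5 ± 0.316 FPKM after CAFR1-CM and 18.7 ± 0.832 FPKM after CAFS1-CM (SD, n = 3 each), a ratio of 0.616 beside 0.633 for CHAF1A.

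The 10 genes not called were ORC2, ORC3, ORC4, ORC5, GINS3, GINS4, CDC7, DBF4, POLD3 and RFC1. Of these, 8 had a log2 fold change below 0. In 6 every CAFR1-CM value lay below every CAFS1-CM value, against 16.8% of all genes tested. A miss of the threshold does not show that a gene stayed the same. ORC2, ORC4, ORC5 and CDC7 overlapped. Of the 46 genes, 22 share exonic bases with another gene in GENCODE v44, and at least 20% of the exonic bases of TYMS, MCM2 and GINS4 lie over a gene on the opposite strand.

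Most, but not all, replication genes outside the 46 were lower as well. Over all genes tested, 11.1% were lower and 15.1% higher, and 19.1% were lower among genes with a mean of at least 1 FPKM, tested alone. Of 32 other initiation and replisome genes, 22 were lower (68.8%), 1 was higher and 9 were not called, with a median log2 fold change of -0.38. Those with the smallest adjusted p were POLE3, a histone-fold subunit of polymerase epsilon, at -0.66, RPA2, a subunit of the single-strand binding protein, at -0.46, and MCMBP, which binds MCM subunits, at -0.47 (adjusted p = 2.64e-04, 3.28e-04 and 4.07e-04, limma). POLD4, the smallest subunit of polymerase delta, was the 1 gene higher, at 66.9, 78.1 and 71.96 FPKM after CAFR1-CM, against 62.1, 57.6 and 57.6 FPKM after CAFS1-CM (log2 fold change 0.28, standard error 0.06, adjusted p = 0.0166, limma). It was not called with no filter on low values, nor without CAFS1-CM replicate 2 or 3. Of 14 genes of replication-coupled chromatin, 11 were lower, 0 were higher and 3 were not called, led by DNMT1, the maintenance methyltransferase, at -0.49, TONSL, which reads new histones, at -0.62, and SSRP1, a subunit of the chaperone FACT, at -0.26 (adjusted p = 1.52e-04, 5.74e-04 and 0.00143, limma).

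Of 14 genes of nucleotide supply, 7 were lower, 1 was higher and 6 were not called. RRM2, the S-phase subunit of ribonucleotide reductase, averaged 54.2 ± 0.944 FPKM after CAFR1-CM and 81.6 ± 2.24 FPKM after CAFS1-CM (SD, n = 3 each). CTPS1, a CTP synthetase, averaged 43.5 ± 2.58 FPKM after CAFR1-CM and 75.8 ± 2.45 FPKM after CAFS1-CM (SD, n = 3 each), and DTYMK, which phosphorylates dTMP, had a log2 fold change of -0.42 (adjusted p = 1.00e-04, 1.25e-04 and 4.67e-04 for the 3 genes, limma). NT5C, a nucleotidase that removes phosphate from dNMPs, was the 1 gene higher (log2 fold change 0.38, standard error 0.09, adjusted p = 0.0217, limma), a call lost with no filter on low values, with median-of-ratios scaling and without any 1 of CAFR1-CM replicates 1 and 3 and CAFS1-CM replicates 1 and 2.

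Of the 28 G1/S control genes tested, 46.4% were lower and 14.3% higher, against 11.1% and 15.1% of all genes tested. The share higher was thus near that of all genes. Of 30 genes, CDKN2A, listed at 0 in all 6 libraries, and CDKN2B were not tested, 13 were lower, 4 were higher and 11 were not called. E2F1, an activator of replication genes, was at 36.5, 38.0 and 35.6 FPKM after CAFR1-CM, against 64.5, 60.5 and 61.2 FPKM after CAFS1-CM (log2 fold change -0.74, standard error 0.04, adjusted p = 8.12e-05, limma). E2F2, a second activator, and CDKN2C, an inhibitor of CDK4 and CDK6, were lower as well, at -0.66 and -0.85 (adjusted p = 2.41e-04 and 1.83e-04, limma). CDKN1A, the gene of the CDK inhibitor p21, was at 40.7, 43.3 and 39.2 FPKM after CAFR1-CM, against 20.0, 19.6 and 19.7 FPKM after CAFS1-CM (log2 fold change 1.02, standard error 0.05, adjusted p = 3.25e-05, limma). Its level after CAFR1-CM was about 2.07 times that after CAFS1-CM, the reverse of E2F1. CDK6 and CDKN1C, which encode a G1 kinase and the CDK inhibitor p57, rose by 0.47 and 0.56 on the log2 scale (adjusted p = 0.00139 and 0.00950, limma). CCND2, the fourth gene higher, lay at 0.28 FPKM at most.

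Genes of G2 and M phase fell as well. Of 25, 24 were lower (96.0%, against 11.1% of all genes tested), 0 were higher and UBE2C was not called. The number lower was 18 when no filter on low values was used and 19 with cyclic loess scaling. The median log2 fold change was -0.48, beside -0.45 for the 46 replication genes. FOXM1, the transcription factor of this phase, averaged 40.6 ± 1.11 FPKM after CAFR1-CM and 65.9 ± 2.77 FPKM after CAFS1-CM (SD, n = 3 each). CDC20, an activator of the anaphase-promoting complex, averaged 101 ± 5.19 FPKM after CAFR1-CM and 167 ± 7.59 FPKM after CAFS1-CM (SD, n = 3 each), and TPX2, a spindle protein, 121 ± 1.99 FPKM after CAFR1-CM and 166 ± 3.41 FPKM after CAFS1-CM (SD, n = 3 each) (adjusted p = 1.12e-04, 1.87e-04 and 2.02e-04 for the 3 genes, limma). The difference between the lists was not tested.

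**Figure D4:**
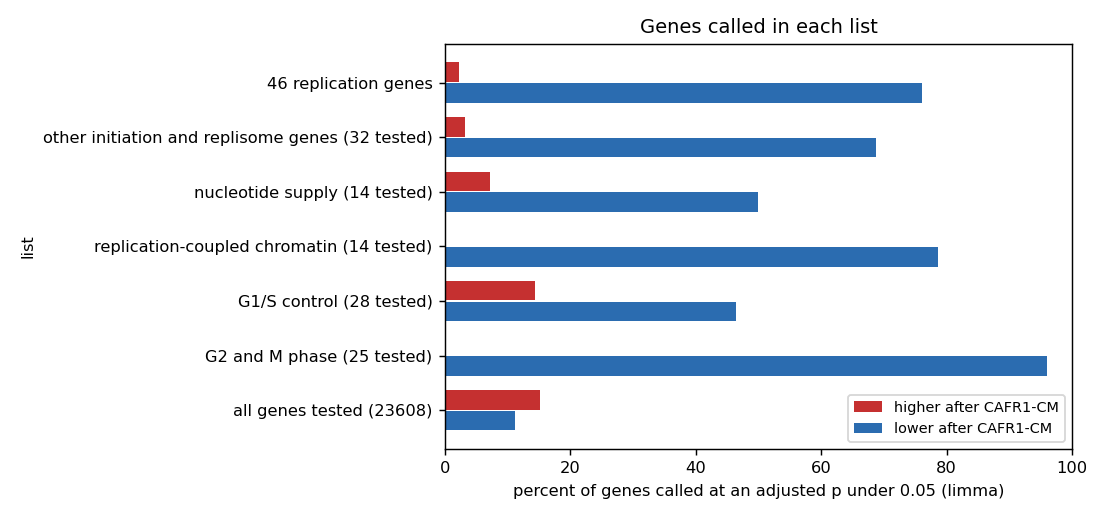
Percent of genes called (horizontal axis, limma, adjusted p under 0.05) higher or lower after CAFR1-CM in the 46 replication genes, in 5 lists of related genes and in all genes tested. Lower calls make up 76.1% of the replication genes and 96.0% of the G2 and M phase genes, against 11.1% of all genes tested.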

How the data were processed

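RNA-seq of ribosomal RNA-depleted RNA from 3 Panc-1 samples per group was processed by the authors. Their methods name SOAPnuke for read filtering, and the submitters' processing notes list HISAT2 2.0.4, Bowtie2 2.2.5, RSEM 1.2.12, DESeq2 1.4.5 and GRCh38.p13. The deposited FPKM values carry no counts, so no count test was run, and the authors' own comparison was not analysed here. Of 97767 rows, 55272 (circular RNAs) held no FPKM value and 42495 were gene rows. Groups and replicate numbers came from the sample titles.

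Genes above 0.1 FPKM in at least 3 libraries (23608) were tested on log2(FPKM + 1) with limma 3.58.1 (R 4.3.3, trend on, two-sided) and no covariates, at a Benjamini-Hochberg adjusted p under 0.05. A fold change on this scale understates the change of low genes. The test was tried on simulated data over 23608 genes, where it recovered 59 of 100 genes set to a ratio of 0.660 and 76 of 100 set to 2, with 8 false calls of 143. Far fewer genes were changed there than were called in the data. The recovery therefore does not give the power of the fit reported. The 46 genes and the other lists were chosen with earlier results of these data known. Values of every library were given for MCM2 to MCM7, PCNA, CDC6, CDT1, GMNN and, in each role, the gene with the largest rise, largest fall and smallest change, and genes of other lists were named when among the 3 smallest adjusted p in a direction. GINS4, RFC3, ENOSF1, CCND2, CDKN2A, CDKN2B and UBE2C were chosen after their values were seen. Alternatives changed the filter, pseudocount, scaling, variance model, annotation rows, replicate block and replicates.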

Additional observations from a re-analysis of the deposited data

How the results depend on the processing

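Of the 35 replication genes lower after CAFR1-CM, 31 were lower under all 16 alternatives, and POLA1 was higher under all of them. The exceptions were POLD2, RFC3, RFC4 and DUT. Their number was 32 with no filter on low values, 38 with a mean of at least 1 FPKM, 40 with median-of-ratios factors and 34 with the replicate number as a block, under which RFC3 was lost and 1 gene was higher. Leaving out each replicate in turn gave 33 to 35 genes lower, 1 to 2 genes higher (ORC2 was the second, without CAFR1-CM replicate 1) and a median log2 fold change of -0.46 to -0.42. The median was -0.41 with cyclic loess scaling and -0.53 with median-of-ratios factors. The number lower with no filter on low values was 18 of the G2 and M phase genes and 18 of the other initiation and replisome genes, against 24 and 22 in the fit reported, and cyclic loess scaling left 19 of the G2 and M phase genes. Over all genes, 2330 were higher without CAFS1-CM replicate 2, against 3560 with all samples, and median-of-ratios factors gave 2784 higher and 3837 lower. Deviations of same-numbered samples correlated at 0.02, -0.03 and 0.06 over genes, and those of differently numbered samples at -0.09 to 0.07. No pairing by number was seen, which does not tell whether the cultures were run in pairs. Depth is unknown, and 3 libraries per group from 1 CAF line each limit the precision.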

Other observations

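E2F cores were also counted in the RefSeq start-site windows of tested genes outside the 46 with a mean of at least 1 FPKM. A core was found for 622 of 2043 genes lower after CAFR1-CM (30.4%), for 414 of 1927 genes higher (21.5%) and for 1535 of 6363 genes not called (24.1%), beside 73.8% of the 42 replication genes with a window. The CCAAT box was found for 48.5% of the genes lower, 39.3% of those higher and 42.6% of those not called, and the CHR motif for 16.8%, 12.9% and 15.3%. These shares are descriptions, and no test was run on them.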
